A study of Mus musculus with 7 samples.

Results

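The 35 genes described here mark neural crest cells and their Schwann cell and melanoblast descendants. They were taken by gene symbol from the 38579 gene entries of the deposited expression table. Each of the 35 symbols matched 1 entry. By role they comprise 5 crest regulators and progenitor genes, 6 receptors, 8 Schwann lineage genes, 3 adhesion and growth cone genes, 7 myelin genes and 6 melanoblast genes. RNA was sequenced in 7 libraries of uncultured cells sorted from the fetal mammary gland of CD1 mice, an albino strain, at E17.5, a day of embryonic development, and the series set one way of sorting fetal mammary stem cells (fMaSC, a fraction enriched for them) beside another. Lineage-negative cells were sorted by the surface proteins CD24 and CD49f into a CD24+CD49f+ fMaSC fraction (2 libraries) and a CD24low stroma fraction (2 libraries). Other cells were sorted by a fluorescent Sox10-Venus reporter and by EpCAM, an epithelial surface protein, into a Sox10+EpCAM+ fMaSC fraction (2 libraries) and an EpCAM-negative stroma fraction (1 library), whose title also gives it as Sox10-negative and lineage-negative. The table's column names give both Sox10+EpCAM+ libraries as lineage-negative, though the title of only 1 of them does, and the labels do not describe the reporter allele. No treatment is named for any of the 7 libraries, nor how many embryos were pooled for each. The question asked of each gene was whether it stays in cells that must carry both the Sox10 reporter and EpCAM, or is found only in the fraction sorted for CD24 and CD49f.

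The neural crest is a transient population that leaves the dorsal neural tube and gives rise to Schwann cells, the glia that ensheath and myelinate peripheral axons, and to melanoblasts, the precursors of pigment cells. The transcription factor SOX10 is kept by crest cells as they become glia or melanoblasts, and fetal mammary epithelium also makes it. Fetal skin carries growing nerves with their Schwann cell precursors, and melanoblasts migrate through the dermis into the epidermis and hair follicles.

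The stretches of 250 bases before the RefSeq transcription start (build GRCm38.p6) are shown for 6 members. Dct, Tyr and Tyrp1 encode the melanin-synthesis enzymes, whose transcripts were higher in both Sox10+EpCAM+ libraries than in either CD24+CD49f+ library. Sox2, Dhh and Gjc3 reached 1 FPKM (fragments normalised to transcript length and library size, the deposited unit) in both CD24+CD49f+ libraries and in no other library. Each sequence reads 5′ to 3′ on the gene's strand. Capitals mark TCATGTG, a form of the E-box that MITF binds, on either strand in the first 3 sequences, and ACAAAG or ACAATG, core SOX motifs, on either strand in the last 3.
Dct: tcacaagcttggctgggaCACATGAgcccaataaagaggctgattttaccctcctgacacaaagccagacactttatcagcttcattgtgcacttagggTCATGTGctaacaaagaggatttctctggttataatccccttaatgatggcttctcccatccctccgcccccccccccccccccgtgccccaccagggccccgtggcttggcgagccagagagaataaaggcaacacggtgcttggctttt
Tyr: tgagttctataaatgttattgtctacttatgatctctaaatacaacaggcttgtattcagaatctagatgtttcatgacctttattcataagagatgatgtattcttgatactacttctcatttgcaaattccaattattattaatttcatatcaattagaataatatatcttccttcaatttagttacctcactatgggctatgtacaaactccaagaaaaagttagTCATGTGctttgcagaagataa
Tyrp1: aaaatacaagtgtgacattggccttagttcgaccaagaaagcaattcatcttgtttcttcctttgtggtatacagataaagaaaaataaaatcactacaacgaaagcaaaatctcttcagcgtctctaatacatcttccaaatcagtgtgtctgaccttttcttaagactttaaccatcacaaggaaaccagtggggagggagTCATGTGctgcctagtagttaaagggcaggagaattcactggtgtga
Sox2: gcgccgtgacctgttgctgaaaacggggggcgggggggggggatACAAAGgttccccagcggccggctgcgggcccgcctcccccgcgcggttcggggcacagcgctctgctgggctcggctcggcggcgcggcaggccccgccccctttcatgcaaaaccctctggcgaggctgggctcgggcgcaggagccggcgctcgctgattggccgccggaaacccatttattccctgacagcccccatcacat
Dhh: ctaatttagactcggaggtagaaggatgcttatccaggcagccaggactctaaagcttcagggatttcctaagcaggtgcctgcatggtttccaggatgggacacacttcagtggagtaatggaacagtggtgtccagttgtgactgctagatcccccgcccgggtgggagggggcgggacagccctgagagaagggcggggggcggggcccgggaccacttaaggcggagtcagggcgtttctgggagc
Gjc3: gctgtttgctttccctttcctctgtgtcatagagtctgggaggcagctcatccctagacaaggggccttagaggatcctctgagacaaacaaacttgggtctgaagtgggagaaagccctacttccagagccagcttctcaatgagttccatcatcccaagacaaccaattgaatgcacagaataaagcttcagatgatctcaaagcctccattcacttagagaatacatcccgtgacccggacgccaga
The windows lie at chr14:118052247-118052496 (minus strand) for Dct, chr7:87493513-87493762 (minus strand) for Tyr, chr4:80833963-80834212 (plus strand) for Tyrp1, chr3:34649745-34649994 (plus strand) for Sox2, chr15:98898541-98898790 (minus strand) for Dhh and chr5:137963099-137963348 (minus strand) for Gjc3. TCATGTG occurred at 2 places before Dct, with first bases 232 and 151 bases before the start, at 1 place before Tyr (22 bases) and at 1 place before Tyrp1 (47 bases). The 23 member genes searched had 36 promoter windows, of which 3, those of these 3 genes, held TCATGTG. The share over all 32851 promoter windows was 3.25%, with only the 250 bases before each start searched. Either SOX motif was found in 6 of the 36 windows, those of 5 genes (Cnp, Dct, Mag, Sox2 and Tyrp1), against 25.2% of all windows. The single match before Sox2 began 206 bases before the start, and the stretches shown for Dhh and Gjc3 held no match. A match describes these letters only and is not evidence of a bound site.

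About 25.1 M to 37.6 M fragments stood behind each library, as estimated from the spacing of low values, so that 1 fragment on a transcript of 2 kb amounted to 0.0146 to 0.0219 FPKM. Between 12790 and 13639 genes reached 1 FPKM. The label check held, since the added reporter sequence was at 202 and 211 FPKM in the Sox10+EpCAM+ libraries and at 0.660 FPKM or less in the other 5. Sox10, on which the reporter sort acts, was at 103 and 110 FPKM in the Sox10+EpCAM+ libraries and at 58.0 and 58.7 FPKM in the CD24+CD49f+ libraries. The reporter sequence was at 0.0710 and 0.0531 FPKM in the CD24+CD49f+ libraries. Sort and reporter thus differ together between the fMaSC fractions, and their parts cannot be told apart. The summed level of 8 epithelial markers was 782 and 923 FPKM in Sox10+EpCAM+, 560 and 360 FPKM in CD24+CD49f+ and 3.98 to 8.08 FPKM in the 3 stroma libraries. The 6 fibroblast markers (Col1a1, Col1a2, Col3a1, Pdgfra, Dpt and Lum) summed to 40.2 and 68.0 FPKM in Sox10+EpCAM+, 1897 and 3073 FPKM in CD24+CD49f+ and 5825 to 6821 FPKM in stroma. CD24+CD49f+ replicate 1 stood apart by its erythroid markers, whose 5 genes summed to 5550 FPKM there against 575 FPKM in replicate 2 and 69.5 to 173 FPKM in the other 5 libraries. The part of these other cells in the results on single genes was not tested, and results that turn on CD24+CD49f+ replicate 1 are given below without it.

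Most glial and nerve-associated genes were far lower in Sox10+EpCAM+ than in CD24+CD49f+ cells, whereas the AP-2 factors and the melanoblast genes were not. Of the 35 genes, 15 reached 1 FPKM in both Sox10+EpCAM+ libraries, 10 reached it in both CD24+CD49f+ libraries but in neither Sox10+EpCAM+ library, 4 stayed under it in all 4 fMaSC libraries and 6 were split between replicates. The 10 were Sox2, Cdh19, S100b, Dhh, Lgi4, Gjc3, Pou3f1, Gap43, Ncam1 and Mag. These classes depend on the threshold, since at 0.3 FPKM 28 genes were kept in Sox10+EpCAM+ and 1 gene, Sox2, was confined to CD24+CD49f+ among the fMaSC fractions. At 3 FPKM the counts were 10 and 14. Both Sox10+EpCAM+ values lay below both CD24+CD49f+ values for 23 genes and above them for 8, and the fractions overlapped for 4. Among the 30 genes that passed the filter for testing (a level of 1 FPKM reached by 2 or more of the 7 libraries), 22 lay below and 5 above in this way, where 30.3% and 21.2% of all 14418 tested genes did so.

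Limma on log2(FPKM + 1), adjusted over all genes tested with a threshold of 0.05, called 19 of the 30 tested members lower in Sox10+EpCAM+ than in CD24+CD49f+ cells and 0 higher, against 8.04% and 1.95% of all tested genes. At an unadjusted p under 0.05 the counts were 20 and 4, where 3395 of all 14418 tested genes passed in either direction. Without CD24+CD49f+ replicate 1, the library with the high erythroid markers, 24 members were tested. Their median log2 fold change was -1.93, against -0.05 over all genes tested at that setting. The median log2 fold change of the 30 was -1.69, against -0.01 over all tested genes. Sox2, Cdh19, Dhh, Gjc3, Mag and Pou3f1, 6 of the 30, passed the filter only through their values in the 2 CD24+CD49f+ libraries, so their differences were partly fixed by that filter. Tyr, Tyrp1, Mlana, Ret and Pmp2, the remaining 5 members, were not tested. Since FPKM measures RNA in bulk, fewer cells of a type and less RNA per cell cannot be told apart here. The 3 comparisons with the CD24+CD49f+ or Sox10+EpCAM+ libraries share those libraries, so their values are set side by side and not counted as independent.

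**Figure D1:**
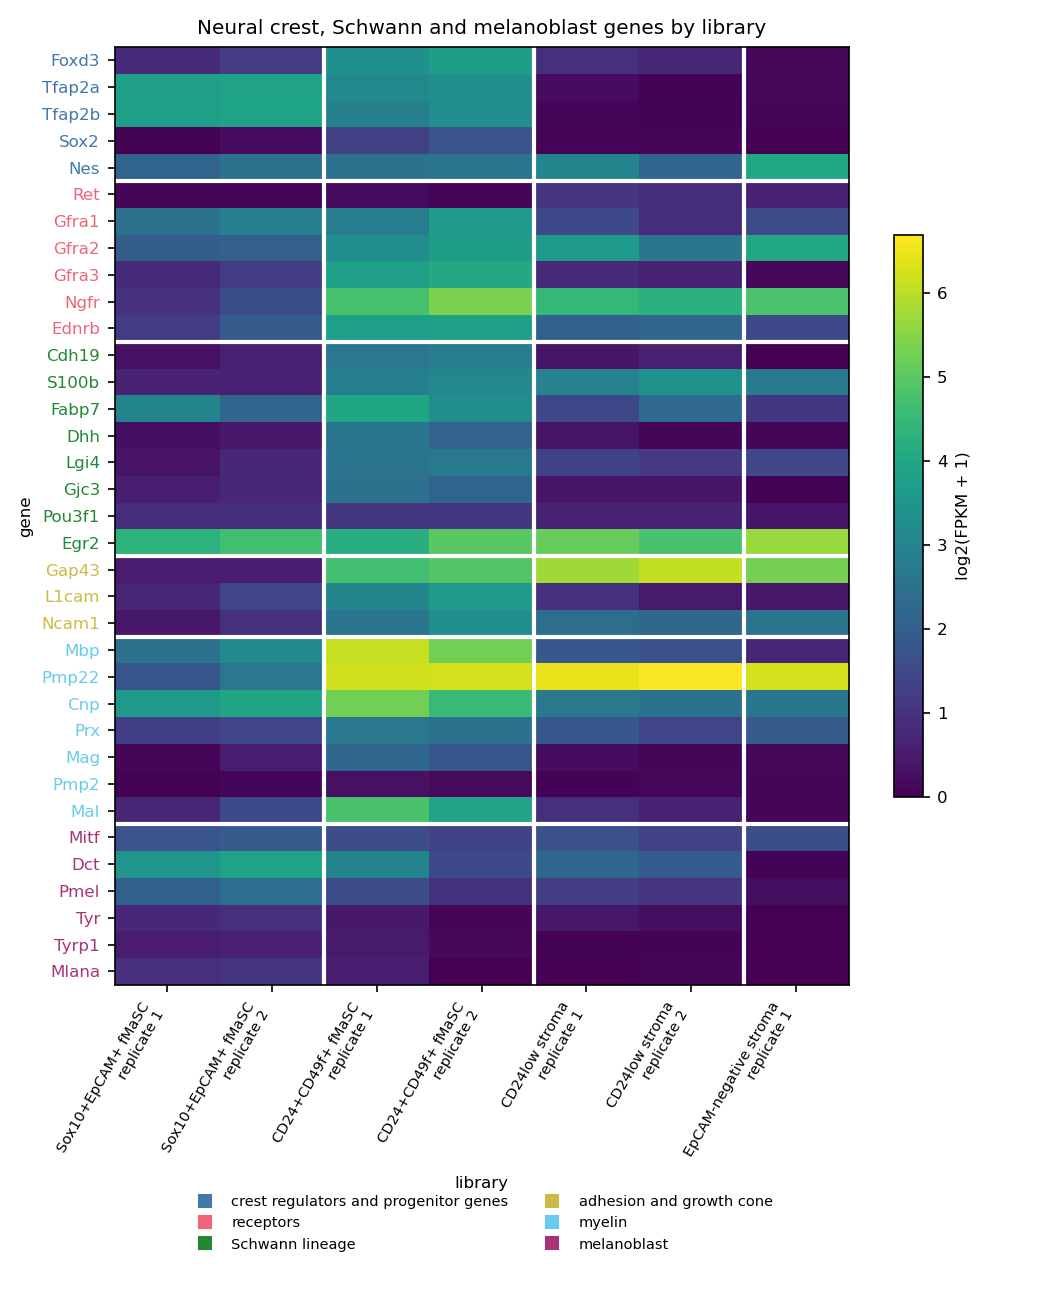
Level of the 35 genes (rows, coloured by role) in each of the 7 libraries (columns), as log2(FPKM + 1). The Sox10+EpCAM+ columns are brightest for Tfap2a, Tfap2b, Egr2, Dct and Cnp. They are dark for most Schwann lineage, adhesion and myelin genes, which are brighter in the CD24+CD49f+ columns. Gap43, Pmp22, S100b and Ncam1 are brighter in the stroma columns too than in the Sox10+EpCAM+ columns.

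**Figure D2:**
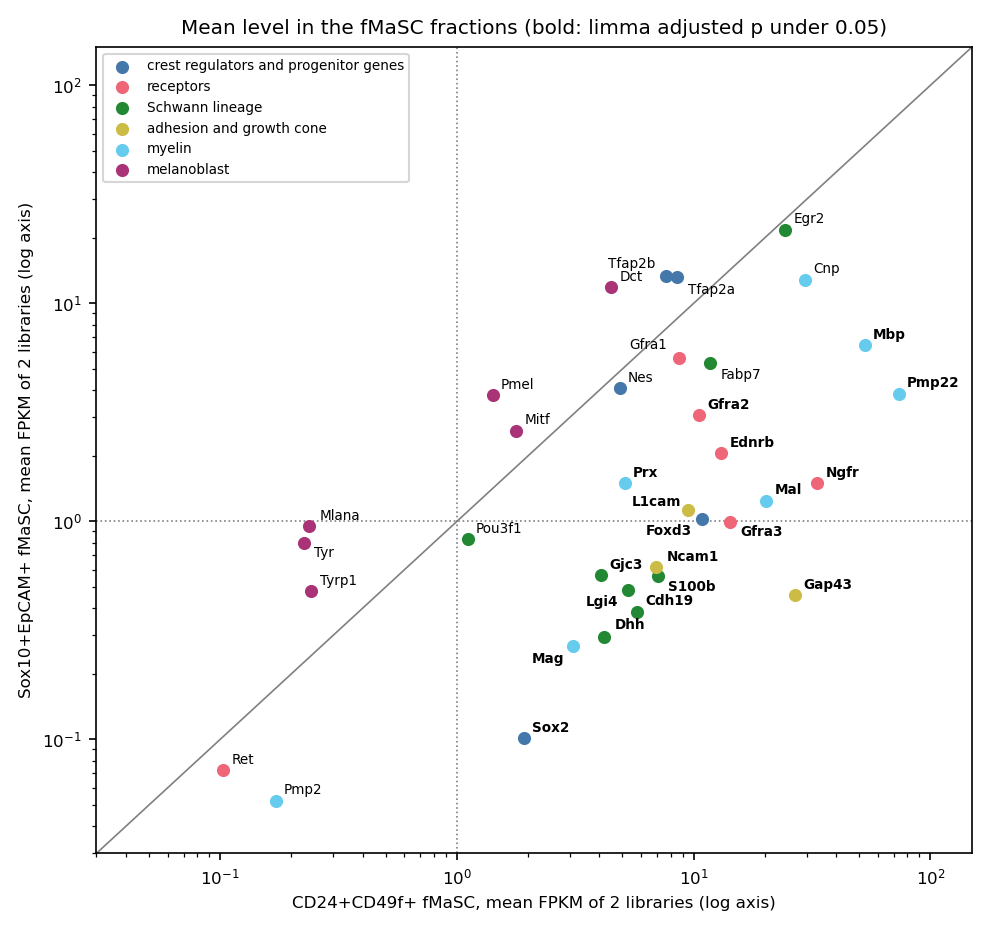
Mean FPKM of the 2 Sox10+EpCAM+ libraries (y axis, log scale) against that of the 2 CD24+CD49f+ libraries (x axis, log scale) for the 35 genes, coloured by role. The diagonal marks equal levels, the dotted lines 1 FPKM and bold names the 19 genes called by limma, all of which lie below the diagonal.

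Among the 5 crest regulators and progenitor genes, the AP-2 factors were highest in Sox10+EpCAM+ cells, whereas Foxd3 and Sox2 fell there against CD24+CD49f+ cells. Tfap2a (chromosome 13, 40715675 to 40733823) encodes AP-2 alpha, a transcription factor of crest induction that surface epithelium also uses. It was at 12.8 and 13.5 FPKM in Sox10+EpCAM+, 8.14 and 8.93 in CD24+CD49f+, 0.172 and 0.0445 in the CD24low libraries and 0.106 in the EpCAM-negative library. Tfap2b (chromosome 1, 19208914 to 19238734), its paralog, was at 12.9 and 13.7 FPKM in Sox10+EpCAM+, 6.63 and 8.72 in CD24+CD49f+, 0.0904 and 0.0273 in the CD24low libraries and 0.0673 in the EpCAM-negative library. Both genes were high in all 4 fMaSC libraries and near 0 in all 3 stroma libraries, with the Sox10+EpCAM+ libraries on top. Their log2 differences between the fMaSC fractions were 0.57 ± 0.16 (SE) for Tfap2a (limma adjusted p = 0.0839) and 0.73 ± 0.18 for Tfap2b (adjusted p = 0.0601), which did not pass the threshold, though Tfap2b passed it without CD24+CD49f+ replicate 2 (adjusted p = 0.0345). Against their own stroma fraction both rose, by 3.11 and 3.02 on the log2 scale in CD24+CD49f+ (adjusted p = 0.000396 and 0.000536) and by 3.68 and 3.74 in Sox10+EpCAM+ (adjusted p = 0.000276 and 0.000329).

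Foxd3 (chromosome 4, 99656299 to 99658671), a forkhead repressor of early crest and Schwann precursor cells, was at 0.742 and 1.32 FPKM in Sox10+EpCAM+, 9.29 and 12.5 in CD24+CD49f+, 0.858 and 0.635 in the CD24low libraries and 0.114 in the EpCAM-negative library. The CD24+CD49f+ libraries stood above all others, and 9.45% of their mean level was left in Sox10+EpCAM+ cells. The log2 fold change between the fMaSC fractions was -2.55 ± 0.22 (adjusted p = 0.00264), and that against CD24low stroma was 2.76 (adjusted p = 0.00153). Sox2 (chromosome 3, 34650005 to 34652461), a SOX factor of glial precursors and other progenitors, was low throughout, at 1.44 and 2.38 FPKM in CD24+CD49f+, 0.0292 and 0.173 in Sox10+EpCAM+ and at most 0.0874 in stroma. Its fall of 1.39 on the log2 scale between the fMaSC fractions (adjusted p = 0.0115) was lost without either Sox10+EpCAM+ replicate (adjusted p = 0.121 without replicate 1 and 0.0748 without replicate 2). Its rise against CD24low stroma (1.40, adjusted p = 0.00972) was lost without either CD24low replicate (adjusted p = 0.0706 and 0.0777). Nes encodes nestin, an intermediate filament of progenitor and many stromal cells. It was at 3.44 and 4.75 FPKM in Sox10+EpCAM+, 4.75 and 5.0 in CD24+CD49f+, 7.12 and 3.51 in the CD24low libraries and 15.0 in the EpCAM-negative library. Its fMaSC fractions lay side by side (log2 fold change -0.22, adjusted p = 0.731), and its fall in Sox10+EpCAM+ against EpCAM-negative stroma (-1.66, adjusted p = 0.0228) was lost without Sox10+EpCAM+ replicate 1 (adjusted p = 0.119) or replicate 2 (adjusted p = 0.0616).

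The 6 receptors divided within 1 family, the GDNF family co-receptors. These GFR alpha proteins bind ligands of the GDNF family at the cell surface and present them to the RET tyrosine kinase. Gfra3, the co-receptor for artemin, was at 13.0 and 15.4 FPKM in CD24+CD49f+, 0.751 and 1.24 in Sox10+EpCAM+, 0.765 and 0.571 in the CD24low libraries and 0.0983 in the EpCAM-negative library. High values were seen in the CD24+CD49f+ libraries alone, at 14.3 times the Sox10+EpCAM+ mean and 21.3 times the CD24low mean. The log2 fold change was -2.94 ± 0.19 between the fMaSC fractions (adjusted p = 0.00123) and 3.19 against CD24low stroma (adjusted p = 0.00058). Gfra1, the co-receptor for GDNF, was at 4.75 and 6.53 FPKM in Sox10+EpCAM+, 6.11 and 11.2 in CD24+CD49f+, 1.78 and 0.828 in the CD24low libraries and 1.96 in the EpCAM-negative library. The fMaSC fractions overlapped for Gfra1 (log2 fold change -0.50, adjusted p = 0.466), and 65.1% of the CD24+CD49f+ mean was left. Its rise against CD24low stroma (2.05, adjusted p = 0.0165) was lost without either CD24low replicate (adjusted p = 0.0529 and 0.112). Gfra2, the co-receptor for neurturin, was at 2.97 and 3.18 FPKM in Sox10+EpCAM+, 8.71 and 12.3 in CD24+CD49f+, 11.1 and 5.21 in the CD24low libraries and 15.1 in the EpCAM-negative library. It was lowest in Sox10+EpCAM+ cells, where it fell by 1.48 against CD24+CD49f+ (adjusted p = 0.0485), a call lost without either Sox10+EpCAM+ replicate (adjusted p = 0.272 and 0.226) or CD24+CD49f+ replicate 2 (adjusted p = 0.123). Its fall of 1.99 against EpCAM-negative stroma (adjusted p = 0.0179) was also lost without either Sox10+EpCAM+ replicate (adjusted p = 0.0879 and 0.0728).

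Ret itself, the signalling receptor of that family, was at 0.0808 and 0.0638 FPKM in Sox10+EpCAM+ and 0.137 and 0.0693 in CD24+CD49f+, against 1.06 and 0.841 in the CD24low libraries and 0.579 in the EpCAM-negative library. Its stroma values lay above all 4 fMaSC values, and it did not pass the filter for testing. Ngfr (chromosome 11, 95568818 to 95587735) encodes the p75 neurotrophin receptor, carried by crest cells, Schwann precursors and some mesenchymal cells. It was at 0.947 and 2.05 FPKM in Sox10+EpCAM+, 26.0 and 40.4 in CD24+CD49f+, 21.1 and 18.3 in the CD24low libraries and 26.9 in the EpCAM-negative library. Every library outside the Sox10+EpCAM+ sort was high, and 4.51% of the CD24+CD49f+ mean was left in Sox10+EpCAM+ cells. The fall was 3.78 ± 0.30 on the log2 scale against CD24+CD49f+ (adjusted p = 0.00203) and 3.52 against EpCAM-negative stroma (adjusted p = 0.00161). Ednrb (chromosome 14, 103814625 to 103844173), the endothelin receptor B of crest and melanoblast migration, was at 12.9 and 13.4 FPKM in CD24+CD49f+, 1.27 and 2.86 in Sox10+EpCAM+, 3.20 and 3.65 in the CD24low libraries and 1.79 in the EpCAM-negative library. The CD24+CD49f+ libraries were the highest, with a log2 fold change of -2.25 ± 0.27 for Sox10+EpCAM+ against them (adjusted p = 0.00636). Their rise of 1.67 over CD24low stroma (adjusted p = 0.0147) was lost without either CD24low replicate (adjusted p = 0.0984 and 0.0938).

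Of the 12 genes listed as ligands of these receptors, of ERBB3 and of KIT, 8 were tested. At an unadjusted p under 0.05, 3 of the 8 were higher and 3 lower in Sox10+EpCAM+ than in CD24+CD49f+ cells. In either direction 3395 of all 14418 tested genes passed it. Where limma called 1.95% and 8.04% of all tested genes higher and lower at the adjusted threshold, it called 2 and 0 of the 8. These were Nrtn, which encodes neurturin, the ligand of the Gfra2 product, at 10.7 and 9.49 against 5.09 and 2.74 FPKM (log2 fold change 1.21, adjusted p = 0.0393), and Nrg1, which encodes neuregulin 1, the ERBB3 ligand, at 8.77 and 10.7 against 4.78 and 4.95 FPKM (0.86, adjusted p = 0.0366). Both calls were lost without either Sox10+EpCAM+ replicate (adjusted p = 0.25 and 0.18 for Nrtn, 0.17 and 0.28 for Nrg1) or either CD24low replicate (0.0864 and 0.0858 for Nrtn, 0.0697 and 0.0698 for Nrg1), and that of Nrg1 also without CD24+CD49f+ replicate 2 (adjusted p = 0.0642). Both were lost with equal sums too, that is with each library scaled to the same summed FPKM (adjusted p = 0.219 for Nrtn and 0.733 for Nrg1). Kitl, which encodes stem cell factor, the KIT ligand, was lowest in Sox10+EpCAM+, at 19.8 and 23.5 FPKM against 30.2 and 48.9 in CD24+CD49f+ (log2 fold change -0.81, adjusted p = 0.135, or 0.0228 without CD24+CD49f+ replicate 1). Artn, which encodes artemin, the ligand of the Gfra3 product, was at 4.93 and 5.45 FPKM in Sox10+EpCAM+ and 7.07 and 5.46 in CD24+CD49f+ (adjusted p = 0.604). Nrtn, Nrg1 and Artn were at 1.32 FPKM or less in the stroma libraries, while the receptor genes Gfra2 and Ngfr were high there.

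Of the 8 Schwann lineage genes, 5 were called lower in Sox10+EpCAM+ than in CD24+CD49f+ cells, against 8.04% of all tested genes. At the 1 FPKM threshold 6 of the 8 reached it in both CD24+CD49f+ libraries and in neither Sox10+EpCAM+ library, as did 5.57% of all tested genes. Cdh19, Dhh, Gjc3 and Pou3f1 of these 6 passed the filter only through the CD24+CD49f+ libraries, and at 0.3 FPKM none of the 6 was in this class. Cdh19 (chromosome 1, 110889195 to 110977372), a cadherin of Schwann cell precursors, was at 5.31 and 6.21 FPKM in CD24+CD49f+, 0.231 and 0.539 in Sox10+EpCAM+, 0.333 and 0.526 in the CD24low libraries and was listed at 0 in the EpCAM-negative library. Its log2 fold change was -2.29 ± 0.19 between the fMaSC fractions (adjusted p = 0.00208) and 2.24 against CD24low stroma (adjusted p = 0.00161). Dhh, the hedgehog ligand by which Schwann cells signal to the nerve sheath, was at 5.03 and 3.37 FPKM in CD24+CD49f+ and at 0.376 FPKM or less in the other 5 libraries. Gjc3, a connexin of myelinating glia, was at 4.63 and 3.48 FPKM in CD24+CD49f+ and at 0.670 FPKM or less elsewhere. Both genes were highest in the CD24+CD49f+ libraries and low elsewhere, with falls of 1.99 for Dhh (adjusted p = 0.00439) and 1.68 for Gjc3 (adjusted p = 0.00424) in Sox10+EpCAM+, although neither call held without Sox10+EpCAM+ replicate 1 (adjusted p = 0.0556 and 0.059). Against CD24low stroma they rose by 2.11 (adjusted p = 0.00323) and 1.92 (adjusted p = 0.0023).

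Lgi4 and S100b were called lower in Sox10+EpCAM+ cells than in both CD24+CD49f+ cells and EpCAM-negative stroma, but differed in their stroma levels. Lgi4, a secreted protein of Schwann cells that promotes myelination, was at 5.01 and 5.53 FPKM in CD24+CD49f+, 0.268 and 0.704 in Sox10+EpCAM+, 1.49 and 1.17 in the CD24low libraries and 1.69 in the EpCAM-negative library. It fell by 2.09 ± 0.20 between the fMaSC fractions (adjusted p = 0.00326), and its rise of 1.43 over CD24low stroma (adjusted p = 0.00918) was lost without either CD24low replicate (adjusted p = 0.0526 and 0.0805). Its fall of 0.87 against EpCAM-negative stroma (adjusted p = 0.0472) was lost under 10 of 14 alternatives, among them each Sox10+EpCAM+ replicate left out (adjusted p = 0.235 and 0.0746) and each CD24low replicate left out (adjusted p = 0.0789 and 0.0784). S100b, a calcium-binding protein of glia that adipocyte and cartilage cells also make, was at 6.45 and 7.68 FPKM in CD24+CD49f+, 0.584 and 0.534 in Sox10+EpCAM+, 6.86 and 9.90 in the CD24low libraries and 5.73 in the EpCAM-negative library. Its 5 values outside the Sox10+EpCAM+ sort lay together, and it fell there by 2.37 ± 0.21 against CD24+CD49f+ (adjusted p = 0.00273) and by 2.11 against EpCAM-negative stroma (adjusted p = 0.00264).

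Fabp7, Pou3f1 and Egr2 were the Schwann lineage genes with no called difference between the fMaSC fractions. Fabp7, the brain-type fatty acid binding protein of Schwann precursors, was at 7.16 and 3.52 FPKM in Sox10+EpCAM+, 14.7 and 8.83 in CD24+CD49f+, 1.76 and 4.09 in the CD24low libraries and 1.08 in the EpCAM-negative library. Its Sox10+EpCAM+ values lay under the CD24+CD49f+ values with 45.5% of the mean left, but the replicates of each fraction were well apart and the log2 fold change of -1.03 had an adjusted p of 0.221. Pou3f1, the POU factor of promyelinating Schwann cells, was between 0.822 and 1.12 FPKM in all 4 fMaSC libraries and between 0.328 and 0.591 in stroma. Egr2, the zinc finger factor that drives myelination and is also an immediate early gene in many cells, was at 19.2 and 24.3 FPKM in Sox10+EpCAM+, 17.9 and 30.9 in CD24+CD49f+, 34.5 and 26.5 in the CD24low libraries and 49.8 in the EpCAM-negative library. It was present in every library, highest in stroma, and the fMaSC fractions overlapped (log2 fold change -0.12, adjusted p = 0.86).

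All 3 adhesion and growth cone genes were called lower in Sox10+EpCAM+ than in CD24+CD49f+ cells, against 8.04% of all tested genes. Gap43 (chromosome 16, 42248442 to 42340651) encodes a growth-associated protein of axons and Schwann precursors. It was at 0.453 and 0.464 FPKM in Sox10+EpCAM+, 24.8 and 28.8 in CD24+CD49f+, 52.8 and 67.1 in the CD24low libraries and 39.2 in the EpCAM-negative library. Levels were highest in stroma, and 1.71% of the CD24+CD49f+ mean was left in Sox10+EpCAM+ cells, the smallest share of any member. The log2 fold change was -4.25 ± 0.19 between the fMaSC fractions (adjusted p = 0.000822) and -4.78 against EpCAM-negative stroma (adjusted p = 0.00026). It was the 1 member called lower in CD24+CD49f+ than in CD24low stroma (-1.13, adjusted p = 0.0171), a call lost without CD24low replicate 2 (adjusted p = 0.108) or either Sox10+EpCAM+ replicate (adjusted p = 0.0736 and 0.0712). Ncam1, the neural cell adhesion molecule, was at 5.12 and 8.79 FPKM in CD24+CD49f+, 0.347 and 0.888 in Sox10+EpCAM+, 4.34 and 3.63 in the CD24low libraries and 4.97 in the EpCAM-negative library. L1cam, an adhesion molecule of axons and Schwann precursors, was at 7.2 and 11.8 FPKM in CD24+CD49f+, 0.617 and 1.63 in Sox10+EpCAM+, 0.931 and 0.395 in the CD24low libraries and 0.368 in the EpCAM-negative library. Ncam1 thus lay at like levels in CD24+CD49f+ and stroma, and L1cam was high in CD24+CD49f+ alone. Their falls between the fMaSC fractions, 2.28 ± 0.29 for Ncam1 (adjusted p = 0.00761) and 2.31 ± 0.34 for L1cam (adjusted p = 0.0119), were lost without Sox10+EpCAM+ replicate 1 (adjusted p = 0.0736 and 0.092). L1cam rose by 2.64 over CD24low stroma (adjusted p = 0.00676, or 0.0654 without CD24low replicate 2), and Ncam1 fell by 1.91 against EpCAM-negative stroma (adjusted p = 0.0113, or 0.0655 without Sox10+EpCAM+ replicate 1).

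Gap43, Ngfr, Pmp22, S100b, Ncam1 and Gfra2, which were high in stroma as well as in CD24+CD49f+, had mean levels in CD24+CD49f+ of 0.447 to 1.75 times those of CD24low stroma. Gap43, Pmp22 and S100b had the lower mean in CD24+CD49f+ and Ngfr, Ncam1 and Gfra2 the higher one. Between 1.71% (Gap43) and 29.3% (Gfra2) of the CD24+CD49f+ mean was left in Sox10+EpCAM+ cells. The summed fibroblast markers had a CD24+CD49f+ mean 0.384 times that of CD24low stroma, with 2.18% of the CD24+CD49f+ mean left in Sox10+EpCAM+. The part of fibroblasts in the levels of these genes was not tested. Ednrb, Lgi4, Fabp7, Cnp and Gfra1 had CD24+CD49f+ means 3.83 to 6.64 times those of CD24low stroma. The ratio was 12.5 to 27.1 for Mbp, Mal, Mag, Gfra3, Foxd3, Cdh19, Dhh, Gjc3, L1cam and Sox2, of which Sox2, Cdh19, Dhh, Gjc3 and Mag passed the filter only through the CD24+CD49f+ libraries.

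**Figure D3:**
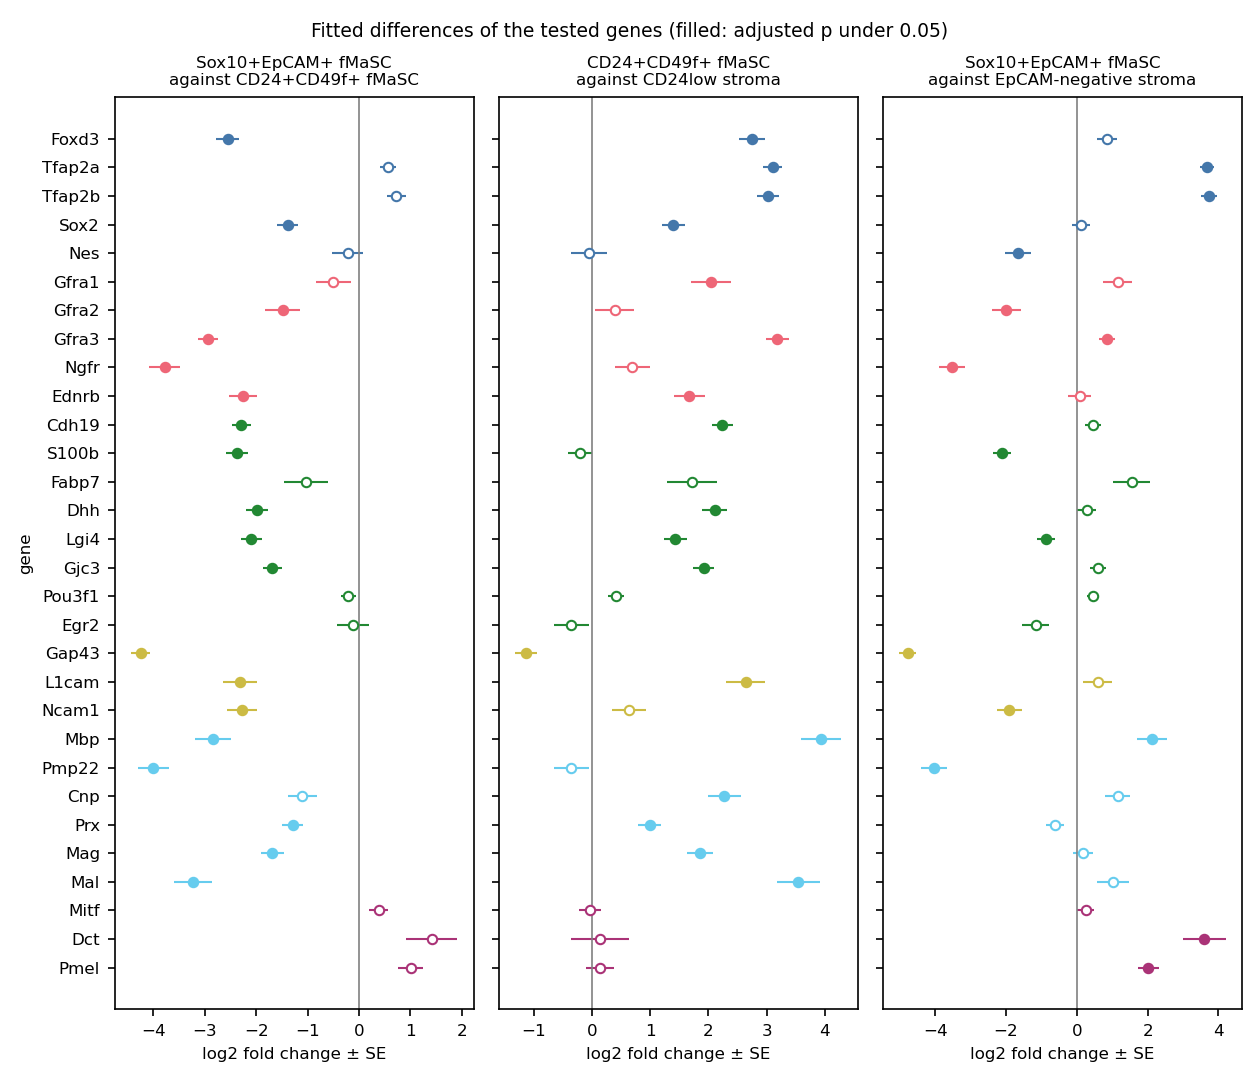
Log2 fold change (x axis, with SE as bars) of the 30 tested genes in 3 comparisons, with filled points for limma adjusted p under 0.05. Mbp, Mal and Gfra3 are negative in the left panel and positive in the middle one, whereas Gap43, Pmp22, Ngfr, S100b and Ncam1 are called negative in both the left and the right panels.

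All 7 myelin genes had lower means in Sox10+EpCAM+ than in CD24+CD49f+ cells. Limma called 5 of the 6 tested lower, against 8.04% of all tested genes. Mag, 1 of the 5, passed the filter only through the CD24+CD49f+ libraries. Mbp, the myelin basic protein gene, was at 68.0 and 37.7 FPKM in CD24+CD49f+, 4.74 and 8.14 in Sox10+EpCAM+, 2.61 and 2.14 in the CD24low libraries and 0.651 in the EpCAM-negative library. The CD24+CD49f+ libraries were far above the rest, and the Sox10+EpCAM+ libraries lay above all 3 stroma libraries. Its log2 fold change between the fMaSC fractions was -2.83 ± 0.35 (adjusted p = 0.00688, or 0.0606 without Sox10+EpCAM+ replicate 1). It rose by 3.94 in CD24+CD49f+ over CD24low stroma (adjusted p = 0.00193) and by 2.13 in Sox10+EpCAM+ over EpCAM-negative stroma (adjusted p = 0.0148, or 0.0678 without Sox10+EpCAM+ replicate 2). Pmp22 (chromosome 11, 63128982 to 63159547), a peripheral myelin membrane protein that fibroblasts also make, was at 73.0 and 74.0 FPKM in CD24+CD49f+, 2.46 and 5.26 in Sox10+EpCAM+, 88.6 and 99.9 in the CD24low libraries and 75.1 in the EpCAM-negative library. All 5 libraries outside the Sox10+EpCAM+ sort were high, and the fall was 4.00 ± 0.30 against CD24+CD49f+ (adjusted p = 0.00173) and 4.03 against EpCAM-negative stroma (adjusted p = 0.00102). Mal, a myelin and lymphocyte proteolipid also found in epithelia, was at 26.5 and 14.1 FPKM in CD24+CD49f+, 0.652 and 1.84 in Sox10+EpCAM+, 0.900 and 0.597 in the CD24low libraries and 0.0687 in the EpCAM-negative library. It was high in CD24+CD49f+ alone, with a fall of 3.23 ± 0.37 in Sox10+EpCAM+ (adjusted p = 0.00574) and a rise of 3.55 over CD24low stroma (adjusted p = 0.0036).

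Mag, the myelin-associated glycoprotein, was at 3.72 and 2.47 FPKM in CD24+CD49f+ and at 0.448 FPKM or less in the other 5 libraries. Its fall of 1.69 between the fMaSC fractions (adjusted p = 0.00876) was lost without Sox10+EpCAM+ replicate 1 (adjusted p = 0.0863), and its rise of 1.86 over CD24low stroma (adjusted p = 0.00555) without CD24low replicate 2 (adjusted p = 0.0587). Prx encodes periaxin, a scaffold of the Schwann cell membrane. It was at 5.45 and 4.79 FPKM in CD24+CD49f+, 1.38 and 1.62 in Sox10+EpCAM+, 2.59 and 1.63 in the CD24low libraries and 2.82 in the EpCAM-negative library. Its fall of 1.29 (adjusted p = 0.0158) was lost without either Sox10+EpCAM+ replicate (adjusted p = 0.157 and 0.108). Its rise of 0.99 over CD24low stroma (adjusted p = 0.0328) was lost without CD24+CD49f+ replicate 1 (adjusted p = 0.069), either CD24low replicate (adjusted p = 0.0553 and 0.163) or either Sox10+EpCAM+ replicate (adjusted p = 0.0979 and 0.0947). Cnp, a phosphodiesterase of myelinating glia that many other cells make at lower levels, was at 37.4 and 21.7 FPKM in CD24+CD49f+, 11.3 and 14.5 in Sox10+EpCAM+, 5.42 and 4.80 in the CD24low libraries and 5.21 in the EpCAM-negative library. It held 43.5% of its CD24+CD49f+ mean in Sox10+EpCAM+, with a log2 fold change of -1.10 (adjusted p = 0.0669) that passed the threshold without CD24+CD49f+ replicate 2 (-1.48, adjusted p = 0.0139), and it rose by 2.27 over CD24low stroma (adjusted p = 0.00634, or 0.0645 without CD24low replicate 2). Pmp2, the fatty acid binding protein of myelin, reached 0.223 FPKM at most in any library and was not tested.

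The replicates of each fMaSC fraction differed for many members, the myelin genes among them. In CD24+CD49f+, 6 of the 7 myelin genes and all 6 melanoblast genes were higher in replicate 1, whereas all 5 crest regulators and progenitor genes, all 3 adhesion genes and 5 of 6 receptors were higher in replicate 2. In Sox10+EpCAM+, all 7 myelin genes and 32 of all 35 members were higher in replicate 2, and 16 members were more than 1.5 times apart. Each role there had more genes higher in replicate 2 than in replicate 1. The shares over all genes are not given here, so these counts are not read as a trait of the members. In CD24+CD49f+, summed erythroid (5550 against 575 FPKM) and epithelial markers (560 against 360 FPKM) were higher in replicate 1, and fibroblast markers in replicate 2 (3073 against 1897 FPKM). In Sox10+EpCAM+, fibroblast (68.0 against 40.2 FPKM), mast cell (14.2 against 3.13 FPKM) and epithelial markers (923 against 782 FPKM) were higher in replicate 2. The part of any of these in these replicate differences was not tested.

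Of the 6 melanoblast genes 3 were tested, and 0 of these were called lower in Sox10+EpCAM+ than in CD24+CD49f+ cells, against 8.04% of all tested genes. For all 6, both Sox10+EpCAM+ values lay above both CD24+CD49f+ values, where 21.2% of all tested genes did so, though Tyr, Tyrp1 and Mlana were not tested. Dct (chromosome 14, 118012792 to 118052246), dopachrome tautomerase and an early melanoblast marker, was at 10.2 and 13.5 FPKM in Sox10+EpCAM+, 7.2 and 1.77 in CD24+CD49f+, 3.84 and 2.89 in the CD24low libraries and 0.0514 in the EpCAM-negative library. The Sox10+EpCAM+ libraries were the highest, the CD24+CD49f+ replicates were far apart and straddled the CD24low values, and the EpCAM-negative library was near 0. Between the fMaSC fractions the log2 fold change was 1.42 ± 0.49 (limma adjusted p = 0.147), which was not called. It was 2.20 without CD24+CD49f+ replicate 1, whose Dct value lay nearer the Sox10+EpCAM+ values than that of replicate 2. Against EpCAM-negative stroma Dct rose by 3.60 (adjusted p = 0.00804). Pmel (chromosome 10, 128706258 to 128720238), the fibril protein of melanosomes, was at 3.26 and 4.35 FPKM in Sox10+EpCAM+, 1.87 and 0.965 in CD24+CD49f+, 1.34 and 0.999 in the CD24low libraries and 0.183 in the EpCAM-negative library. Pmel had the same order as Dct, with a log2 fold change of 1.01 ± 0.24 between the fMaSC fractions (adjusted p = 0.0545), which was not called. It was 1.28 without CD24+CD49f+ replicate 1, again the replicate nearer the Sox10+EpCAM+ values. Over EpCAM-negative stroma Pmel rose by 2.01 (adjusted p = 0.00501).

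Tyr, Tyrp1 and Mlana, later genes of pigment synthesis and melanosomes, were low everywhere and not tested. Tyr, the tyrosinase gene, was at 0.702 and 0.894 FPKM in Sox10+EpCAM+, 0.372 and 0.0794 in CD24+CD49f+, and 0.338 and 0.185 in CD24low stroma. Tyrp1, which encodes a tyrosinase-related protein, was at 0.422 and 0.538 FPKM in Sox10+EpCAM+, 0.387 and 0.0975 in CD24+CD49f+, and 0.0270 and 0.0454 in CD24low stroma. Mlana, a melanosome membrane protein, was at 0.886 and 1.01 FPKM in Sox10+EpCAM+, at 0.473 FPKM in one CD24+CD49f+ library and listed at 0 in the other, and listed at 0 and at 0.0889 FPKM in CD24low stroma. All 3 genes were listed at 0 in EpCAM-negative stroma and stood highest in both Sox10+EpCAM+ libraries. Mitf, the master transcription factor of melanocytes, which has promoters active in many other cells, was at 2.40 and 2.82 FPKM in Sox10+EpCAM+, 1.98 and 1.57 in CD24+CD49f+, 2.18 and 1.5 in the CD24low libraries and 2.04 in the EpCAM-negative library. Mitf thus lay within a narrow range across all 7 libraries (log2 fold change between the fMaSC fractions 0.38, adjusted p = 0.315).

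Of 9 other melanocyte genes on a list, 2 passed the filter, and neither was called between the fMaSC fractions by limma. Both were higher in Sox10+EpCAM+ at an unadjusted p under 0.05, which 3395 of all 14418 tested genes passed in either direction. Kit, the receptor for stem cell factor on melanoblasts, mast cells and some epithelia, was at 9.78 and 10.3 FPKM in Sox10+EpCAM+, 3.94 and 5.93 in CD24+CD49f+, 3.36 and 1.40 in the CD24low libraries and 1.09 in the EpCAM-negative library (log2 fold change 0.91 between the fMaSC fractions, adjusted p = 0.152). Rab27a, a GTPase of melanosome transport, had a log2 fold change of 0.54 (adjusted p = 0.113). Both rose in Sox10+EpCAM+ over EpCAM-negative stroma, Kit by 2.40 (adjusted p = 0.00742) and Rab27a by 1.57 (adjusted p = 0.00344), calls lost with equal sums (adjusted p = 0.108 and 0.0551).

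**Figure D4:**
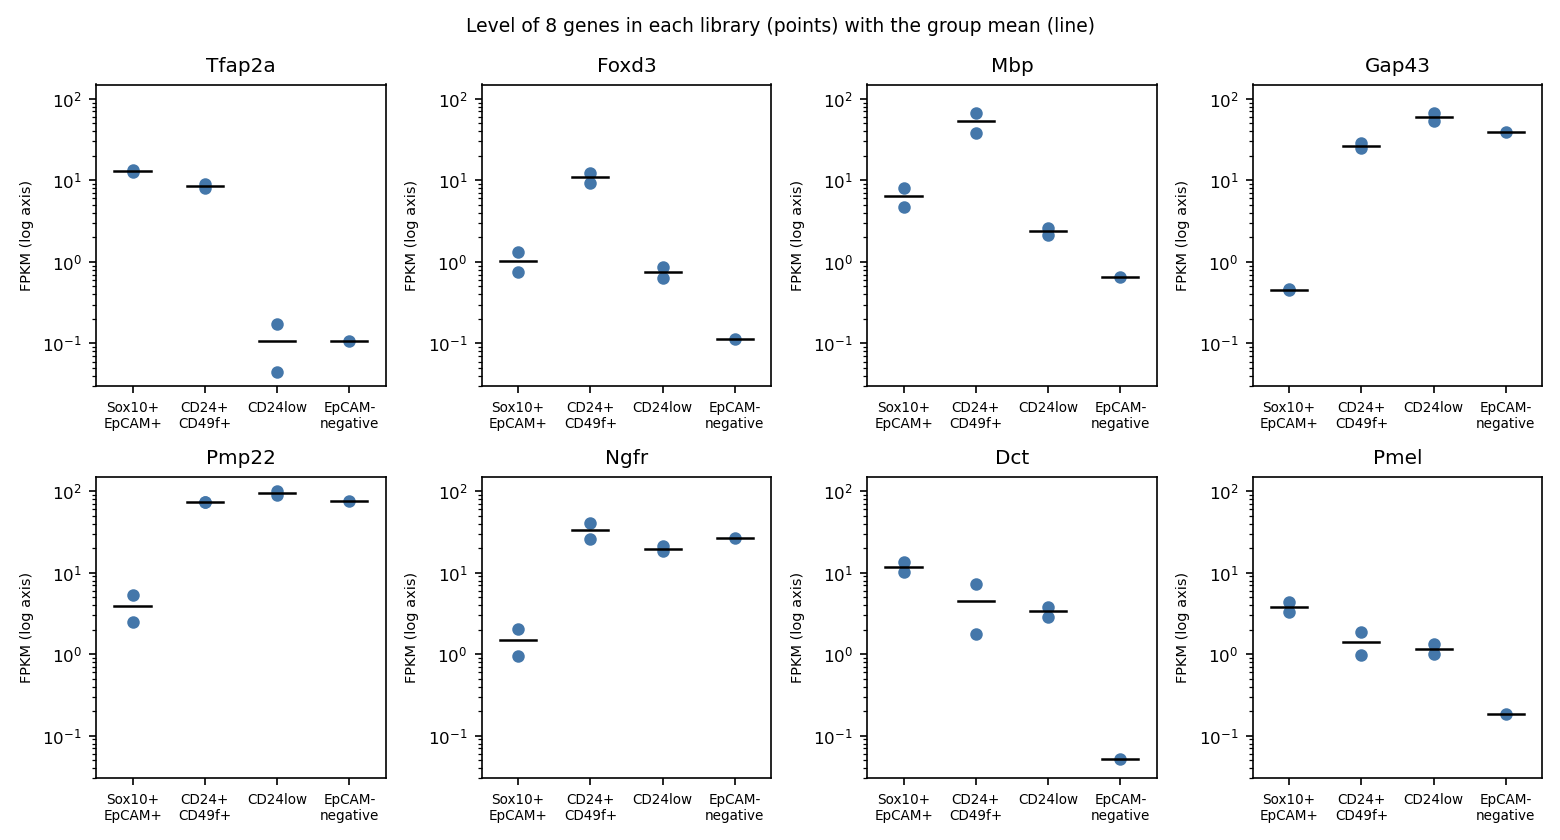
FPKM (y axis, log scale) of 8 genes in each library (points) of the 4 groups (x axis), with the group mean as a line. Dct and Pmel are highest in Sox10+EpCAM+, Foxd3 and Mbp in CD24+CD49f+, and Gap43, Pmp22 and Ngfr are low in Sox10+EpCAM+ only.

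Other crest and glial genes were compared in the same way. Of 20 genes listed, 15 were tested. Limma called 7 lower and 0 higher in Sox10+EpCAM+ than in CD24+CD49f+ cells, against 8.04% and 1.95% of all tested genes. At an unadjusted p under 0.05 the counts were 8 and 2, where 3395 of all 14418 tested genes passed in either direction. Ptprz1, Kcna1 and Col28a1 passed the filter only through the CD24+CD49f+ libraries, so their differences were partly fixed by that filter. Zeb2, a zinc finger factor of crest and mesenchymal cells, fell by 3.89 (adjusted p = 0.00437) and Scn7a, a sodium channel of glia and mesenchyme, had a log2 fold change of -2.22 (adjusted p = 0.0041, or 0.0529 without Sox10+EpCAM+ replicate 1), and both were high in stroma too. Sox10 itself, with a log2 fold change of 0.86 (adjusted p = 0.0516), and Erbb3, the neuregulin receptor of Schwann cells and of epithelium, with 0.72 (adjusted p = 0.116, or 0.0496 without CD24+CD49f+ replicate 2), did not pass the threshold and were both at more than 18 FPKM in all 4 fMaSC libraries. Of 10 neuron and axon genes 4 were tested. Nefm, Nefl and Tubb3 fell in Sox10+EpCAM+ against CD24+CD49f+ cells, by 2.30 (adjusted p = 0.00872), 2.04 (adjusted p = 0.0209) and 0.68 (adjusted p = 0.0441). Tubb3 passed the filter only through the CD24+CD49f+ libraries, so its fall was partly fixed by that filter. None of the 3 calls held without Sox10+EpCAM+ replicate 1 (adjusted p = 0.0805, 0.148 and 0.346) or replicate 2 (0.0677, 0.115 and 0.21), and those of Nefl and Tubb3 were also lost without either CD24low replicate (0.0588 and 0.0584 for Nefl, 0.0878 and 0.0861 for Tubb3). The part of nerve tissue in the CD24+CD49f+ libraries was not tested.

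Each fMaSC fraction was also compared with the stroma sorted with it. In CD24+CD49f+ against CD24low stroma, 17 of the 30 tested members were called higher and 1 lower, against 7.78% and 2.94% of all tested genes. Sox2, Cdh19, Dhh, Gjc3 and Mag, all called higher, passed the filter only through the CD24+CD49f+ libraries, so their calls were partly fixed by it. In Sox10+EpCAM+ against EpCAM-negative stroma 6 members were called higher (Tfap2a, Tfap2b, Dct, Mbp, Pmel and Gfra3) and 8 lower (Gap43, Pmp22, Ngfr, S100b, Gfra2, Ncam1, Nes and Lgi4), against 12.5% and 13.6% of all tested genes. Of these, Gfra3 (log2 fold change 0.85, adjusted p = 0.0461) was lost without either Sox10+EpCAM+ replicate (adjusted p = 0.0974 and 0.22) or either CD24low replicate (adjusted p = 0.0797 and 0.0794). The EpCAM-negative group is 1 library, and its spread is taken from the other groups. Between EpCAM-negative and CD24low stroma, limma called 0 of the 30 members, against 0.0277% of all tested genes. An unadjusted p under 0.05 was reached by 5 of the 30 members and by 436 of all 14418 tested genes. Dct, Mlana, Tyr and Tyrp1 were near or at 0 in the EpCAM-negative library, while the CD24low libraries held Dct at 3.84 and 2.89 FPKM, a difference that did not pass the adjusted threshold. The difference between the sorts was tested as an interaction of both fMaSC minus stroma contrasts. It was called negative for 5 of the 30 members and positive for 0, against 1.44% and 0.0763% of all tested genes. At an unadjusted p under 0.05 it was positive for 3 and negative for 21 members, where 2112 of all 14418 tested genes passed in either direction. Without CD24+CD49f+ replicate 1 its median over the 24 tested members was -1.63, against -0.07 over all genes tested at that setting. With all 7 libraries Dct stood at 3.46 (limma adjusted p = 0.118) and Pmel at 1.88 (adjusted p = 0.0929), neither of them called. Without CD24+CD49f+ replicate 1 Dct stood at 4.24 and Pmel at 2.15. Without replicate 2 the medians were -1.70 and -0.03, with Dct at 2.68.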

How the data were processed

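RNA from 7 libraries of sorted fetal mammary cells was measured with Illumina TruSeq RNA kits and 100-base paired ends on a HiSeq2000, per the labels' protocols. Alignment used STAR on GRCm38/mm10 and quantification Cufflinks, per the submitters' processing notes; versions, annotation and strand handling are not given in the sources used here. The deposited values are FPKM per library, per the file headers, with no counts, so no count model was run and depth was estimated from low values on transcripts of 800 to 6000 bases (72.4% to 76.8% of these lay within 0.15 of a whole fragment). Reads shared by near-identical or overlapping genes cannot be separated from FPKM. Symbols were matched without regard to case and checked by Ensembl identifier, with 36664 entries (95.0%) named from GENCODE M21, and 8 added sequences were left out of the tests.

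Groups follow the labels, which call the libraries biological replicates; replicate numbers follow accession order. FPKM was transformed to log2(FPKM + 1), which understates the change of low genes, and the 14418 genes that reached 1 FPKM in 2 or more of the 7 libraries were tested. The fit, by limma 3.58.1 under R 4.3.3, had 4 group means over all 7 libraries (3 residual degrees of freedom, empirical Bayes with trend, two-sided, Benjamini-Hochberg adjustment, threshold 0.05). All 35 members were named, and of each other list up to 4 genes by largest called change between the fMaSC fractions, then by highest level. Sox10 is a sort gene, and Artn, Erbb3, Ptprz1, Kcna1 and Col28a1, outside this rule, were named after their values were seen. Some other listed genes are not reported here. The members and lists were chosen with earlier results of these data known. Alternatives were another pseudocount (0.1), filters (none, 0.3 FPKM), scalings (equal sums with and without mitochondrial genes, quantile), no trend, only the groups compared, and each library left out. Promoter sequences come from RefSeq (GRCm38.p6).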

Additional observations from a re-analysis of the deposited data

Results flagged for a closer look

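The difference between the sorts, that is the Sox10+EpCAM+ minus EpCAM-negative log2 difference less the CD24+CD49f+ minus CD24low difference, was tested in the same limma model. It was called for 5 of the 30 tested members, all negative, against 1.44% of all tested genes called negative and 0.0763% positive. These were Ngfr (-4.22, adjusted p = 0.0217), Pmp22 (-3.68, adjusted p = 0.031), Gap43 (-3.66, adjusted p = 0.013), Gfra3 (-2.34, adjusted p = 0.0313) and Lgi4 (-2.30, adjusted p = 0.0336). For Ngfr, Pmp22 and Gap43, which were high in all 3 stroma libraries, the CD24+CD49f+ mean was 1.69, 0.780 and 0.447 times the CD24low mean, while the EpCAM-negative level was 18.0, 19.4 and 85.4 times the Sox10+EpCAM+ mean. The contrast rests on a single EpCAM-negative library. None of the 5 calls held when Sox10+EpCAM+ replicate 1 was left out (adjusted p = 0.162 to 0.202), nor without Sox10+EpCAM+ replicate 2 or either CD24low replicate, nor with equal sums, that is with each library scaled to the same summed FPKM (adjusted p = 0.0585 to 0.289). Without CD24+CD49f+ replicate 1 or 2 all 5 differences stayed negative. They were -4.52 and -3.91 for Ngfr, -3.69 and -3.67 for Pmp22 and -3.76 and -3.55 for Gap43. For Gfra3 they were -2.45 and -2.23, and for Lgi4 -2.36 and -2.24. Dct had a positive difference at both settings (4.24 and 2.68), but was not called with all libraries (3.46, adjusted p = 0.118). Fibroblast markers differed between the sorts in the same direction, and their part in these differences was not tested.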

How the results depend on the processing

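Of the 19 members called between the fMaSC fractions, 10 (Foxd3, Gfra3, Ngfr, Ednrb, Cdh19, S100b, Lgi4, Gap43, Pmp22 and Mal) kept their call under every alternative that tested them, as did 9 of 18 for CD24+CD49f+ against CD24low stroma, 8 of 14 for Sox10+EpCAM+ against EpCAM-negative stroma and 0 of 5 for the difference between the sorts. With each library left out in turn, the members called numbered 10 to 19, 9 to 18, 9 to 19 and 0 to 11 in that order, and 0 of 30 throughout between the stroma fractions. Without a CD24+CD49f+ library 24 members were tested. Among all genes the same left-out libraries gave 269 to 2509 calls between the fMaSC fractions (1440 with all libraries), 426 to 2353 for CD24+CD49f+ against CD24low (1545), 1674 to 5758 for Sox10+EpCAM+ against EpCAM-negative (3762), 0 to 11 between the stroma fractions (4) and 4 to 974 for the difference between the sorts (218).

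Equal sums (each library scaled to the same summed FPKM) gave 431, 498, 2157 and 45 calls among all genes for the fMaSC fractions, CD24+CD49f+ against CD24low, Sox10+EpCAM+ against EpCAM-negative and the difference between the sorts, and 541, 707, 2415 and 67 without mitochondrial genes. Fitting only the groups compared gave 847, 785, 7878 and, between the stroma fractions, 29 calls, and 22 members for Sox10+EpCAM+ against EpCAM-negative. No filter gave 724 between the fMaSC fractions and 235 between the stroma fractions. For the difference between the sorts a pseudocount of 0.1 gave 421 and quantile normalization 104, and its members called were 1 with no filter, 0 with equal sums and 2 with equal sums without mitochondrial genes. Equal sums moved the median log2 fold change of all genes from 0.09 to -0.60 for Sox10+EpCAM+ against EpCAM-negative, from -0.01 to -0.22 between the fMaSC fractions, from 0.13 to -0.11 for CD24+CD49f+ against CD24low, from -0.01 to 0.22 between the stroma fractions and from -0.03 to -0.47 for the difference between the sorts. The share of higher against lower calls moved with scaling: 13 and 418 with equal sums and 526 and 816 with quantile normalization between the fMaSC fractions (281 and 1159 as deposited), 855 and 772 with quantile normalization for CD24+CD49f+ against CD24low (1121 and 424), and 569 and 1588 with equal sums for Sox10+EpCAM+ against EpCAM-negative (1803 and 1959). Pmel and Tfap2b were called higher in Sox10+EpCAM+ than in CD24+CD49f+ with quantile normalization (adjusted p = 0.0366 and 0.0349). Reversed signs occurred between the fMaSC fractions for Pou3f1 with quantile normalization (0.18) and for Egr2 without CD24+CD49f+ replicate 2 (0.26) or Sox10+EpCAM+ replicate 1 (0.05), with a range for Egr2 of -0.49 to 0.26 over the left-out libraries. At 0.3 FPKM the detection classes held 28 genes kept, 1 in CD24+CD49f+ only, 2 low in both and 4 mixed, and at 3 FPKM 10, 14, 8 and 3. The cause of these shifts was not tested.

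No paired analysis was possible because the labels give the libraries no shared replicate numbers. Groups of 1 or 2 libraries, approximate depth and values without counts limit the precision, and genes under 1 FPKM rest on few fragments.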
